A study of Rattus norvegicus with 36 samples.

Results

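The 10 genes described here act in mitophagy and autophagy: *Bnip3*, *Bnip3l*, *Fundc1*, *Pink1*, *Sqstm1*, *Map1lc3a*, *Map1lc3b*, *Gabarapl1*, *Ulk1* and *Becn1*. They were taken by gene name from the deposited tables, in which each name stood for 1 gene identifier, so all 10 were found among 24275 listed genes. Their mRNA was measured by poly-A RNA sequencing in H9C2 cells, a rat cardiac myoblast line. Cells were transfected with 25 nmol/L of a mimic control (MC), of miR-125b or of 1 of 4 isomiRs, which are forms of this microRNA that differ at the 3′ end. The isomiRs were Plus A (miR-125b A in the labels), Trim A (Trim 1 in the labels), Trim AG (Trim 2) and Trim AGU (Trim 3). The transfected cells were then kept in normoxia or hypoxia. Of 12 groups of mimic and oxygen with 3 libraries each, 11 groups (33 libraries, 18 from hypoxia and 15 from normoxia) were used, and Normoxia MC was not analysed here. Thus, MC could be compared with the mimics in hypoxia only, and hypoxia with normoxia under miR-125b and the 4 isomiRs only. All groups had been transfected, and the hypoxic cells were in serum-free, low-glucose medium while the normoxic cells were in fresh standard medium, so oxygen and medium cannot be told apart in any comparison of hypoxia with normoxia. The labels do not say whether the 3 libraries of a group came from separate cultures, and the p-values then measure the spread between these libraries only.

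Autophagy encloses cell contents in a membrane that fuses with the lysosome, and mitophagy is its form directed at mitochondria. The kinase ULK1 starts the process and BECN1 belongs to the lipid kinase complex that prepares the membrane. Proteins of the ATG8 family (here *Map1lc3a*, *Map1lc3b* and *Gabarapl1*) are attached to the growing membrane, where they hold receptors that carry the cargo. SQSTM1, also called p62, is such a receptor for ubiquitinated proteins. BNIP3, BNIP3L (NIX) and FUNDC1 sit in the outer mitochondrial membrane and bind ATG8 proteins directly, whereas PINK1 is a kinase that collects on damaged mitochondria and starts a ubiquitin signal. In the heart, these receptors are known for clearing mitochondria under low oxygen, and *Bnip3* is a textbook target of hypoxia-inducible factor.

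The mimics share their 5′ part and differ in the last bases alone, so they are shown first. The RefSeq mature sequence of rno-miR-125b-5p (GRCr8, chr11:29732588-29732609, plus strand) is 22 bases long, and the isomiRs were written from it by the 3′ change that each name states. The capitals mark the seed, bases 2 to 8, which is CCCUGAG in all 5.
miR-125b: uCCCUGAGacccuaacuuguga
Plus A: uCCCUGAGacccuaacuugugaa
Trim A: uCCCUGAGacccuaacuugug
Trim AG: uCCCUGAGacccuaacuugu
Trim AGU: uCCCUGAGacccuaacuug
The 4 isomiRs were thus 23, 21, 20 and 19 bases long, in the order given.

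The libraries held 28361216 to 42672584 counts (median 29923694), and the lowest count of any of the 10 genes in any library was 461, for *Pink1*, so counting error was small for all 10. The Hypoxia Trim AG libraries were the deepest, at 39940087 to 42672584 counts, and no library of another group held more than 34505938. Depth and mimic thus cannot be told apart for that group. *Vegfa* and *Slc2a1*, which hypoxia is known to induce, were higher in every hypoxic library (315 to 782 and 47.7 to 94.7 CPM, counts scaled to library size) than in every normoxic library (139 to 297 and 19.6 to 33.8 CPM). Of the other genes chosen as oxygen checks, *Ankrd37* was at 3.24 to 7.50 CPM in hypoxia and 0.564 to 2.61 CPM in normoxia. *Egln3* was at most 0.309 CPM in any library, and its ranges overlapped. Of the muscle markers, *Myod1*, *Myog* and *Acta1* were present at 10.4 CPM or more in all libraries, while *Des* stayed at 0.855 to 4.98 CPM. The lowest libraries held 9.22 CPM of *Tnnt2* and 0.458 CPM of *Chrna1*. *Vim*, which is not particular to muscle, was at 2468 to 4624 CPM. The cardiomyocyte markers *Nppa*, *Myh6* and *Nkx2-5* were at most 0.987 CPM, whereas *Gata4*, a cardiac transcription factor on the same list, was at 8.72 to 16.4 CPM in all libraries. *Ptprc*, *Epcam* and *Cdh1*, markers of blood and epithelial cells, were at most 0.261 CPM. Myogenic genes moved with the groups: *Myog* was 352 ± 8.5 CPM (SD, n = 3) in Hypoxia MC and 11.3 to 63.9 CPM as the group mean in all other groups, and *Myod1* was 120 to 146 CPM in the normoxic libraries and 17.1 to 66.4 CPM in the hypoxic ones. *Tnnt2* and *Chrna1* followed *Myog*, with 307 ± 11 and 30.4 CPM in Hypoxia MC and at most 47.8 and 6.32 CPM as the mean with any other mimic in hypoxia. The part of this shift in the results below was not tested, and in bulk RNA fewer cells of a type and less RNA per cell cannot be told apart. *Cd68*, a macrophage marker, was at most 2.43 CPM, and *Pecam1* and *Cdh5* were not analysed here. Several libraries stood apart. *Cav1* was 269 CPM in Normoxia Plus A replicate 1 against 98.0 and 98.3 CPM in the other Plus A libraries, and 102 CPM in Normoxia miR-125b replicate 1 against 282 and 263 CPM, so this pair went against its labels. In Hypoxia Trim A, Trim AG and Trim AGU, the deviation of replicate 1 from its group rose with gene length (r = 0.388, 0.290 and 0.364 across 13162 genes, which are not independent replicates), while that of replicate 2 fell with it. In Normoxia Trim AGU the signs were the other way round, with r = -0.331 for replicate 1 and 0.2997 for replicate 2. Hypoxia Trim AGU replicate 2 had the largest spread from its group (SD of 0.478 on the log2 scale).

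Per length, *Sqstm1* was the most abundant of the 10 genes and *Ulk1* among the least. In FPKM (fragments scaled by gene length and library size), which allows genes to be set side by side, *Sqstm1* ranged from 631 to 952 in hypoxia (median 750) and from 165 to 337 in normoxia (median 268). The medians in hypoxia were 129 FPKM for *Map1lc3b*, 116 for *Bnip3*, 109 for *Map1lc3a*, 37.4 for *Becn1*, 37.2 for *Gabarapl1*, 20.7 for *Bnip3l*, 19.0 for *Fundc1*, 18.6 for *Pink1* and 12.2 for *Ulk1*. In normoxia, *Bnip3* had a median of 23.9 FPKM, below *Map1lc3b* (80.8), *Map1lc3a* (80.1) and *Becn1* (38.6). All other levels are given in CPM, which compares libraries within a gene. In the files' coordinates, for which no build was given in the sources used here, all 10 are protein-coding genes: *Bnip3* lies at chr1:211248098-211265282, *Bnip3l* at chr15:43643897-43667029, *Fundc1* at chrX:5549419-5566127, *Pink1* at chr5:156677146-156689415, *Sqstm1* at chr10:35704730-35716294, *Map1lc3a* at chr3:150801289-150802935, *Map1lc3b* at chr19:53629779-53646058, *Gabarapl1* at chr4:163293724-163302858, *Ulk1* at chr12:51908448-51934702 and *Becn1* at chr10:89209940-89225297.

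When the 11 group means of each gene were put in order, 28 of the 100 neighbouring pairs did not overlap in their libraries. These were 5 for *Pink1*, 4 each for *Sqstm1*, *Gabarapl1* and *Ulk1*, and 3 each for *Bnip3l* and *Map1lc3b*. There were 2 each for *Bnip3* and *Map1lc3a*, 1 for *Fundc1* and 0 for *Becn1*. Such pairs were not counted for other genes, so whether these counts are high or low for a gene was not tested. For *Sqstm1*, the order began with the trimmed forms in hypoxia, went on with Plus A, miR-125b and MC in hypoxia, and ended with Normoxia Trim AG and Trim AGU, below Normoxia Trim A without overlap. For *Gabarapl1* it began with Hypoxia MC, whose libraries were above all others, and ended with Normoxia Trim AG, which overlapped Normoxia Trim A but not Normoxia Trim AGU, its neighbour in the order. *Ulk1* had another order: Hypoxia MC, Plus A and miR-125b came first, each apart from the next, and the 3 trimmed forms in hypoxia came last, overlapping the normoxic groups.

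**Figure D1:**
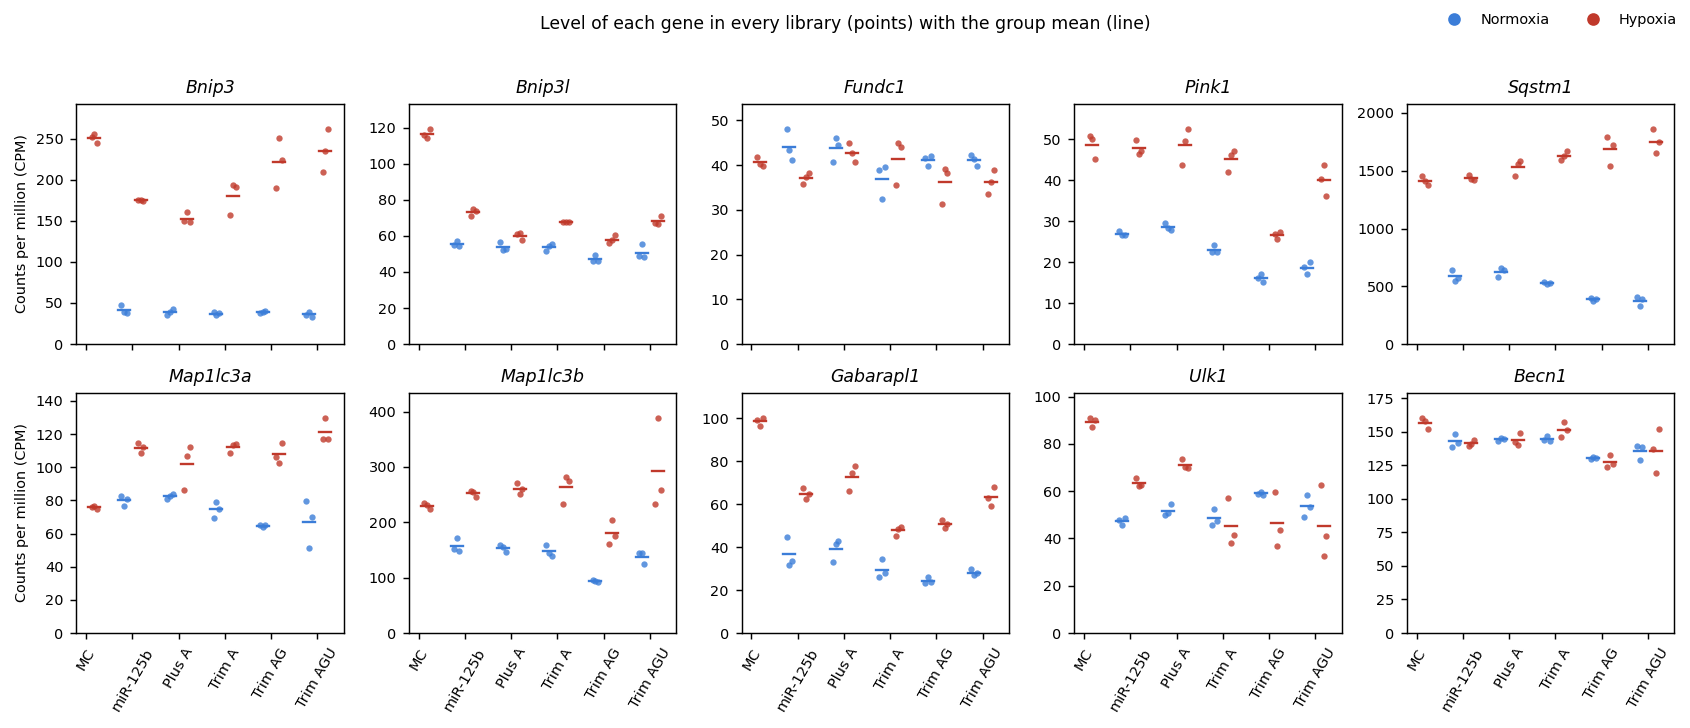
CPM of each gene (y axis, from 0) in every library (points) by mimic (x axis), normoxia in blue and hypoxia in red, with the mean of 3 libraries as a line; Normoxia MC was not analysed here. *Bnip3* and *Sqstm1* are higher in each hypoxic library than in any normoxic library, *Bnip3l*, *Gabarapl1* and *Ulk1* are highest in Hypoxia MC, and the *Becn1* libraries lie between 119 and 160 CPM.

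The first comparison asked how these genes differed with oxygen when the mimic was the same. Differences were tested with edgeR's quasi-likelihood test for each pair of groups, and calls needed both a 1.5-fold difference and an adjusted p under 0.05 (Benjamini-Hochberg over all genes tested). Of 50 pairs of gene and mimic, 27 were called and all 27 were higher in hypoxia. *Bnip3*, *Sqstm1*, *Pink1*, *Map1lc3b* and *Gabarapl1* rose under all 5 mimics, *Map1lc3a* rose under Trim AG and Trim AGU, and *Bnip3l*, *Fundc1*, *Ulk1* and *Becn1* were called under none. By mimic, 5 of 10 genes were called higher under miR-125b, where 9.34% of all genes tested were, 5 under Plus A (10.0% of all genes), 5 under Trim A (12%), 6 under Trim AG (15%) and 6 under Trim AGU (13.6%). None of the 10 was called lower, against 11.5%, 12.8%, 14.5%, 17.8% and 13.4% of all genes. DESeq2 called none lower either, and 2, 0, 0, 1 and 0 of the 10 were lower at an unadjusted p under 0.05. The median log2 fold change of the 10 genes was 0.50, 0.50, 0.57, 0.73 and 1.03 in the same order of mimics, beside 0.00 to 0.02 over all genes tested.

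Among the mitophagy receptors, only *Bnip3* was called. It ranged from 148 to 261 CPM in the 18 hypoxic libraries (median 192) and from 33.3 to 47.5 CPM in the 15 normoxic ones (median 38.5), with no overlap. Under miR-125b, its 3 hypoxic libraries were each at 175 CPM and its normoxic libraries at 47.5, 39.0 and 37.8 CPM, which gave a log2 fold change of 1.99 ± 0.08 (SE, adjusted p = 2.43e-07). Under Plus A, the hypoxic libraries were at 149, 160 and 148 CPM and the normoxic at 34.9, 38.8 and 43.1 CPM (log2 fold change 1.86 ± 0.08, adjusted p = 4.01e-07). The estimates were higher in the trimmed groups: 2.21 ± 0.11 under Trim A, 2.51 ± 0.12 under Trim AG and 2.75 ± 0.16 under Trim AGU, a 4.62-, 5.68- and 6.72-fold difference. The normoxic means changed little across the mimics, from 36.0 CPM under Trim AGU to 41.5 CPM under miR-125b, and the hypoxic means went from 153 CPM under Plus A to 251 CPM under MC. In the order of group means, Hypoxia MC, Trim AGU, Trim AG, Trim A and miR-125b followed each other with overlapping libraries, and Hypoxia Plus A had the lowest mean. Its libraries did not overlap those of miR-125b, but Plus A replicate 2 (160 CPM) was above Trim A replicate 1 (158 CPM).

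*Bnip3l*, the paralog of *Bnip3*, had 46.0 to 57.4 CPM in normoxia (median 52.5) and 56.2 to 119 CPM in hypoxia (median 67.5). Under the 5 mimics that could be compared, hypoxia was 1.03- to 1.38-fold above normoxia. The adjusted p was 0.000627 under miR-125b, 0.524 under Plus A, 0.0155 under Trim A, 0.00691 under Trim AG and 0.0288 under Trim AGU, but no fold change reached 1.5. *Fundc1* ranged from 31.3 to 44.96 CPM in hypoxia and 32.4 to 48.0 CPM in normoxia, and the ranges overlapped. Its lowest adjusted p was 0.00354, under miR-125b, where hypoxic libraries (35.9, 37.4 and 38.2 CPM) lay below normoxic libraries (48.0, 43.4 and 41.1 CPM) at a log2 fold change of -0.33 ± 0.07. The other 4 differences had 95% intervals that held 0.

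RefSeq promoters (GRCr8) were at hand for *Bnip3*, *Pink1*, *Sqstm1*, *Map1lc3b*, *Gabarapl1* and *Ulk1*, 6 of the 10 genes. They were searched because hypoxia-inducible factor is known to bind ACGTG and, in some genes, GCGTG, and 5 of these 6 genes rose in hypoxia. In the 250 bases before the start, read on both strands, ACGTG was present in 2 of the 6 (*Bnip3* and *Pink1*) and either motif in 3 (*Map1lc3b* also). Of 33469 promoters of the same length, 16.6% held ACGTG and 36.7% held either motif. Whether the counts among 6 promoters differ from these shares was not tested. The last 120 bases before the start are shown for 4 genes, read along the gene, with both motifs in capitals, on either strand (the reverse complements read CACGT and, for the second motif, CACGC). They lie at chr1:203154963-203155082 (*Bnip3*, minus strand), chr5:155825951-155826070 (*Pink1*, minus), chr19:66574475-66574594 (*Map1lc3b*, plus) and chr10:35037751-35037870 (*Sqstm1*, minus).
Bnip3: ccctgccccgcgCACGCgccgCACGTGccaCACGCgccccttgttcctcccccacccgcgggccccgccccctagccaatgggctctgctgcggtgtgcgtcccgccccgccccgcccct
Pink1: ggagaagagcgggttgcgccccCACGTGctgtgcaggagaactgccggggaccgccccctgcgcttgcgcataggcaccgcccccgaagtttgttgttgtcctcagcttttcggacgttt
Map1lc3b: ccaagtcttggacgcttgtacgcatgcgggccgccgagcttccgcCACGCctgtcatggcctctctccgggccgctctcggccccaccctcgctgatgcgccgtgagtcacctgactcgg
Sqstm1: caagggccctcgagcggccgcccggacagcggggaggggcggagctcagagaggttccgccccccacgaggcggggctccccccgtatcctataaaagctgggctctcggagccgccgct
The run of 6 letters CACGTG, which holds ACGTG on both strands, began 99 bases before the *Bnip3* start and 98 and 161 bases before the *Pink1* start, and 5.59% of all promoters held it. *Bnip3* also had CACGC 108 and 90 bases before its start. The *Sqstm1*, *Gabarapl1* and *Ulk1* windows held neither motif, and *Map1lc3b* held GCGTG, which 25.9% of promoters held, once. A second motif, TGACTCA, bound by AP-1 factors and present in 4.05% of promoters, was found once, in *Map1lc3b*, 17 bases before its start. These matches are letters in a window and not measured sites.

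*Pink1* was lower in abundance and rose under every mimic. Under miR-125b, it was at 49.8, 46.3 and 47.2 CPM in hypoxia and 27.6, 26.6 and 26.7 CPM in normoxia, a log2 fold change of 0.74 ± 0.06 (adjusted p = 7.73e-06). Under the isomiRs, the log2 fold change went from 0.66 ± 0.08 with Plus A to 1.15 ± 0.16 with Trim AGU (adjusted p from 5.87e-05 to 0.00295). Although the rise under Trim AG (0.73 ± 0.08) was close to that under miR-125b, both levels were lower there, with 26.9, 25.6 and 27.2 CPM in hypoxia and 16.2, 17.0 and 15.1 CPM in normoxia. The hypoxic Trim AG libraries thus overlapped the normoxic miR-125b libraries.

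*Sqstm1* rose by 1.18 to 2.26 on the log2 scale. It spanned 1373 to 1858 CPM in hypoxia (median 1572) and 328 to 662 CPM in normoxia (median 532), so the groups were far apart. Under miR-125b, the hypoxic libraries were at 1463, 1430 and 1420 CPM and the normoxic at 638, 549 and 576 CPM (2.31-fold, adjusted p = 5.6e-07). Under Plus A the fold was close to this, at 2.27. It was 2.92 under Trim A, 4.36 under Trim AG and 4.80 under Trim AGU, with log2 fold changes of 1.55 ± 0.07, 2.12 ± 0.08 and 2.26 ± 0.16 (adjusted p = 1.4e-06, 6.84e-07 and 0.000244). With Trim AGU, the normoxic libraries (407, 328 and 390 CPM) had the lowest mean of the 11 groups and the hypoxic libraries (1858, 1651 and 1747 CPM) the highest, although both overlapped those of Trim AG. A gene on the opposite strand, *RGD1564036*, overlaps *Sqstm1* and had a mean of 4.42 CPM. The libraries did not keep strand, so its reads and those of *Sqstm1* cannot be told apart in the shared stretch.

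The 3 genes of the ATG8 family, whose products coat the membrane, rose less than *Bnip3* and *Sqstm1*. *Map1lc3b* was at 257, 254 and 246 CPM in hypoxia and 151, 171 and 147 CPM in normoxia under miR-125b, which is 1.52-fold (log2 fold change 0.61 ± 0.06, adjusted p = 2.96e-05) and only just past the fold limit. Without Normoxia miR-125b replicate 1, 1 of the pair with doubtful labels, it was 0.58, and without replicate 3, whose label was not in doubt, 0.56, both under the limit. The difference of *Map1lc3b* was 0.66 ± 0.06 under Plus A, 0.76 ± 0.10 under Trim A, 0.95 ± 0.10 under Trim AG and 1.15 ± 0.25 under Trim AGU. The last rested on a wide spread, with 233, 388 and 258 CPM in hypoxia, and the call was lost without Normoxia Trim AGU replicate 2 or 3 (adjusted p = 0.0541 and 0.0624).

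*Gabarapl1* spanned 45.2 to 100.0 CPM in hypoxia and 23.2 to 44.9 CPM in normoxia, and its ranges just failed to overlap. Its log2 fold change was 0.74 ± 0.12 under miR-125b, 0.78 ± 0.11 under Plus A, 0.62 ± 0.11 under Trim A, 1.06 ± 0.08 under Trim AG and 1.21 ± 0.13 under Trim AGU (adjusted p from 9.49e-06 to 0.00181). The Trim A call was lost without Normoxia Trim A replicate 1 or 3 (log2 fold change 0.54 and 0.58). *Map1lc3a* was higher in hypoxia by 0.40 ± 0.05 under miR-125b and 0.51 ± 0.08 under Trim A, both with an adjusted p under 0.05 (0.000151 and 0.00078) but below 1.5-fold, and by 0.20 ± 0.09 under Plus A (adjusted p = 0.0991). It rose under Trim AG (0.74 ± 0.07, adjusted p = 5.11e-05), with 106, 103 and 115 CPM against 65.4, 63.8 and 65.1 CPM. Under Trim AGU, hypoxic libraries at 117, 129 and 117 CPM stood against scattered normoxic libraries at 79.3, 51.3 and 69.8 CPM (0.91 ± 0.19, adjusted p = 0.0125), and without Normoxia Trim AGU replicate 3 the adjusted p was 0.0545.

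The initiation genes did not pass in this comparison. *Ulk1* under miR-125b was 65.6, 62.0 and 62.5 CPM in hypoxia and 47.9, 45.6 and 48.7 CPM in normoxia, a 1.26-fold difference (adjusted p = 0.000688), and it was 1.27-fold under Plus A (adjusted p = 0.00124). In the trimmed groups, its log2 fold change was -0.18 ± 0.14, -0.33 ± 0.15 and -0.21 ± 0.21 (adjusted p = 0.324, 0.0829 and 0.454), with overlapping libraries. In those 3 hypoxic groups, *Ulk1* was highest in replicate 1, at 57.0, 59.8 and 62.5 CPM, against 32.7 to 43.6 CPM in the other libraries, and these are the libraries whose deviations rose with gene length. *Becn1* was the most even of the 10 genes. It lay between 119 and 160 CPM in all 33 libraries, its log2 fold changes were -0.11 to 0.04, and no adjacent pair in the order of its 11 group means was free of overlap.

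**Figure D2:**
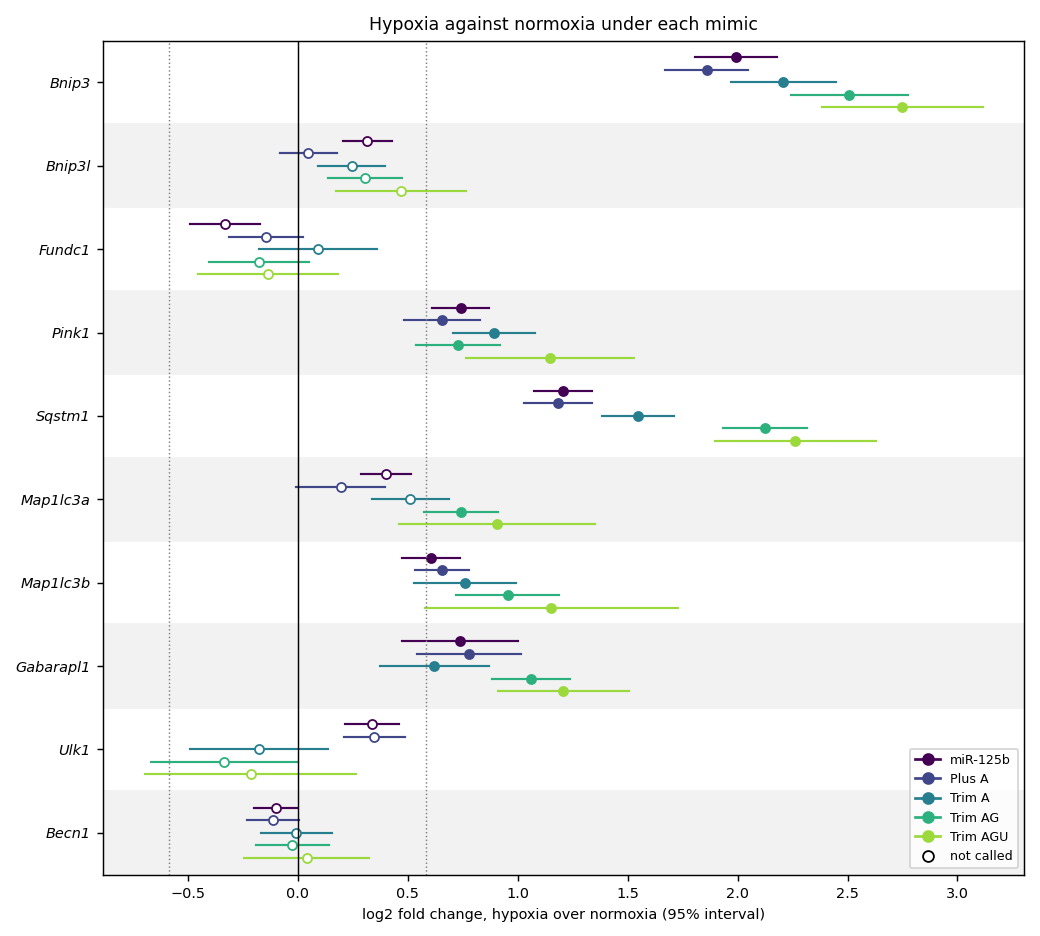
Log2 fold change of hypoxia over normoxia (x axis) for each gene (y axis) under each of the 5 mimics (colours), with the 95% interval as a line; filled points were called, open points were not, and dotted lines mark 1.5-fold. *Bnip3* and *Sqstm1* lie furthest to the right, with Trim AG and Trim AGU as their rightmost points, while *Becn1* and *Fundc1* stay near 0.

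The second comparison set each mimic against MC, which the study did in both oxygen levels and which was possible here in hypoxia only. The 5 comparisons share the 3 MC libraries. Of 50 pairs, 15 were called, 12 lower and 3 higher than MC. *Bnip3l* fell with all 5 mimics, *Ulk1* with the 3 trimmed isomiRs, *Gabarapl1* with Trim A and Trim AG, *Bnip3* with Plus A and *Pink1* with Trim AG, while *Map1lc3a* rose with miR-125b, Trim A and Trim AGU. *Fundc1*, *Sqstm1*, *Map1lc3b* and *Becn1* were not called with any mimic. By mimic, 1 of 10 genes was lower and 1 higher with miR-125b, where 12.5% of all genes tested were called lower and 9.43% higher. With Plus A it was 2 lower and 0 higher (14.4% and 10.5% of all genes), with Trim A 3 lower and 1 higher (15.7% and 12.4%), with Trim AG 4 lower and 0 higher (20.2% and 17%) and with Trim AGU 2 lower and 1 higher (12.4% and 11.4%). With Plus A and Trim AG, where edgeR called none higher, DESeq2 called none either, and 3 and 2 of the 10 were higher at an unadjusted p under 0.05. *Myog*, *Tnnt2* and *Chrna1* were lower than MC with every mimic, by the values given above, and their part in these results was not tested. The median log2 fold change of the 10 genes was -0.10, -0.04, -0.03, -0.26 and -0.04, beside -0.02 to 0.00 over all genes.

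*Bnip3l* showed the most regular difference. It was at 116, 114 and 119 CPM with MC and at 71.2, 74.9 and 73.9 CPM with miR-125b, a fall to 0.646 of the MC level (log2 fold change -0.63 ± 0.03, adjusted p = 5.81e-08). With Plus A the libraries were at 61.1, 61.6 and 57.7 CPM (-0.93 ± 0.05, adjusted p = 1.97e-07) and with Trim AG at 56.2, 57.5 and 60.3 CPM (-0.94 ± 0.07, adjusted p = 9.35e-06). All Trim A libraries were at 67.5 or 67.6 CPM (-0.74 ± 0.06, adjusted p = 4.15e-05). For Trim AGU, at 67.1, 66.4 and 71.2 CPM, the log2 fold change was -0.63 ± 0.09 (adjusted p = 0.00481). Without Trim AGU replicate 1 it was -0.5847, just short of the fold limit, and the call was lost. Once the trend with gene length was taken off it was -0.49, also under the limit. With MC, *Bnip3l* was in no library below 114 CPM and with the other mimics in none above 74.9 CPM.

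*Bnip3*, at 251, 256 and 245 CPM with MC, fell to 149, 160 and 148 CPM with Plus A (log2 fold change -0.69 ± 0.05, adjusted p = 1.08e-06). With miR-125b it was 0.715 of the MC level (adjusted p = 1.91e-07) and with Trim A 0.745 (adjusted p = 0.00592), neither past the fold limit. With Trim AG and Trim AGU, the libraries overlapped those of MC, and the log2 fold changes were -0.11 (95% interval -0.36 to 0.14) and 0.05 (-0.24 to 0.35).

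*Gabarapl1* was at 99.4, 96.7 and 100.0 CPM with MC. It fell with Trim A to 45.2, 48.6 and 49.5 CPM (-1.0 ± 0.07, adjusted p = 2.02e-05) and with Trim AG to 52.5, 49.1 and 50.9 CPM (-0.89 ± 0.07, adjusted p = 9.53e-06). With miR-125b (0.675 of MC, log2 fold change -0.57), Plus A (0.749) and Trim AGU (0.708), it was lower without overlap and with an adjusted p of 3.24e-07, 0.00017 and 0.00913, but under the fold limit. The value for miR-125b depended on the scaling: with library totals in place of TMM factors it was -0.60 and was called.

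*Ulk1* fell from 90.8, 87.0 and 90.3 CPM with MC to 57.0, 37.9 and 41.6 CPM with Trim A (-0.93 ± 0.13, adjusted p = 0.000671), 59.8, 36.7 and 43.6 CPM with Trim AG (-0.88 ± 0.15, adjusted p = 0.00102) and 62.5, 32.7 and 41.2 CPM with Trim AGU (-0.85 ± 0.20, adjusted p = 0.0199). The Trim AGU call was lost without any single MC library or without Trim AGU replicate 3 (adjusted p from 0.0705 to 0.0767), and with the length trend taken off it was -0.57. With miR-125b and Plus A, *Ulk1* was 0.727 and 0.809 of the MC level (adjusted p = 1.46e-06 and 0.00036).

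*Pink1* stood out with Trim AG. Its MC libraries were at 50.8, 50.04 and 45.2 CPM, and the Trim AG libraries at 0.571 of that level (-0.81 ± 0.08, adjusted p = 3.69e-05). For the other 4 mimics the log2 fold change was -0.13 to 0.02, and the 95% intervals together ran from -0.47 to 0.20.

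*Map1lc3a* was the only gene of the 10 called higher than MC. Its MC libraries were close together, at 76.3, 76.4 and 75.0 CPM, and the miR-125b libraries were at 115, 109 and 112 CPM (1.51-fold, adjusted p = 1.15e-07). With Trim A it was 1.52-fold and with Trim AGU 1.77-fold higher (adjusted p = 0.000138 and 0.0044), and with Plus A and Trim AG 1.36- and 1.48-fold, below the limit (adjusted p = 0.00103 and 0.000186). The miR-125b call was lost without Hypoxia MC replicate 3 or Hypoxia miR-125b replicate 1 (log2 fold change 0.58 for each). The miR-125b and Trim A values were near the limit and fell short of it (log2 fold change 0.56 for each) when libraries were scaled by their totals. *Sqstm1* was higher than MC by 0.06 to 0.45 on the log2 scale, and *Map1lc3b* ranged from -0.29 ± 0.10 with Trim AG to 0.51 ± 0.24 with Trim AGU, none past the fold limit. *Becn1* differed from MC by -0.23 ± 0.07 with Trim AG (adjusted p = 0.0214) and by less with the others.

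**Figure D3:**
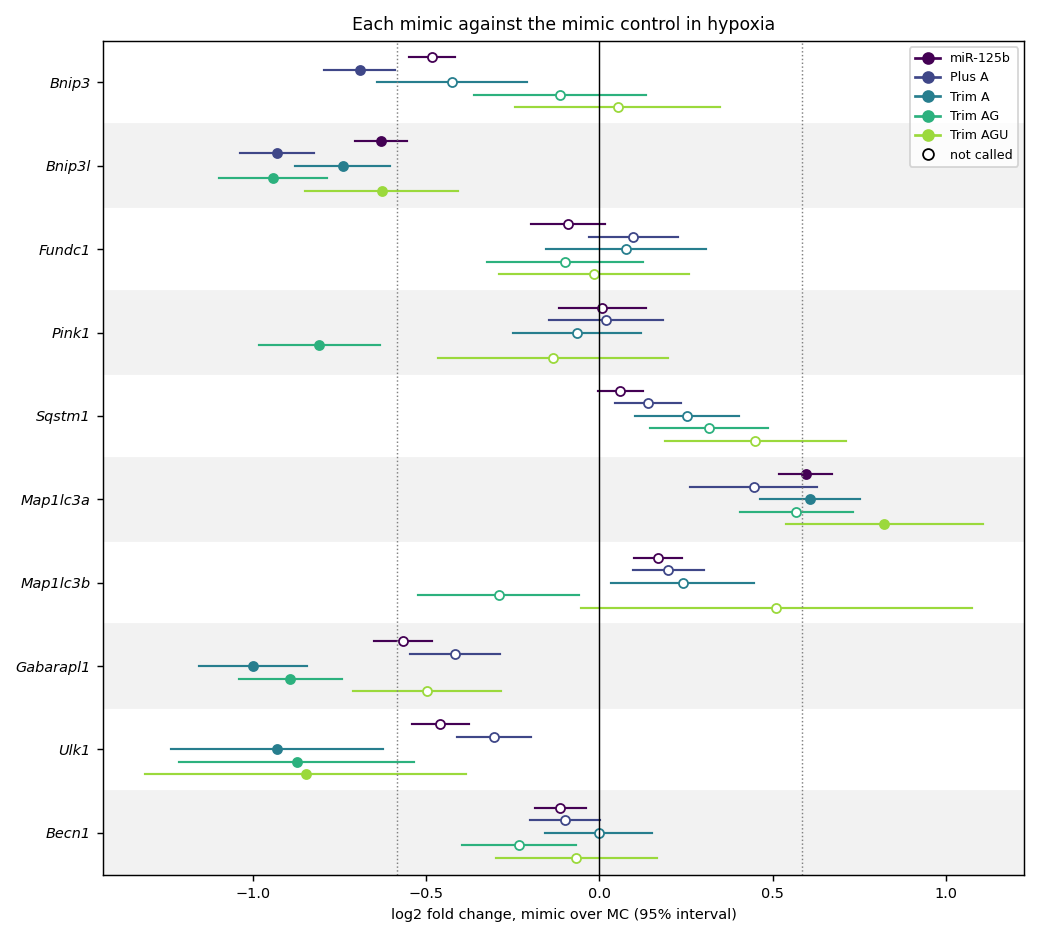
Log2 fold change of each mimic over MC in hypoxia (x axis) for each gene (y axis), with the 95% interval as a line; filled points were called, open points were not, and dotted lines mark 1.5-fold. *Bnip3l* is below 0 and called with every mimic, *Map1lc3a* is above 0 with every mimic, and *Pink1* is near 0 except with Trim AG.

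The third comparison set each isomiR against miR-125b at the same oxygen, and within each oxygen level the comparisons share the 3 miR-125b libraries. In hypoxia 1 of 40 pairs was called. *Pink1* with Trim AG was at 0.564 of the miR-125b level (-0.83 ± 0.07, adjusted p = 7.48e-05), where 19.3% of all genes tested were called in either direction. No gene of the 10 was called with Plus A, Trim A or Trim AGU, where 2.03%, 0.873% and 3.75% of all genes were, and 5, 3 and 2 of them had an unadjusted p under 0.05, with none called by DESeq2. With Trim AG, *Map1lc3b* (-0.47 ± 0.10, adjusted p = 0.00708), *Gabarapl1* (-0.34 ± 0.07, adjusted p = 0.00462) and *Bnip3l* (-0.32 ± 0.07, adjusted p = 0.00593) were lower and *Bnip3* higher (0.36 ± 0.11, adjusted p = 0.0277), each below 1.5-fold. With Plus A, *Bnip3* and *Bnip3l* were lower by 0.21 and 0.30 on the log2 scale (adjusted p = 0.0107 and 0.00365).

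In normoxia, 5 of 40 pairs were called, all lower than miR-125b. With Trim AG, 4 genes fell, where 13.9% of all genes tested were called in either direction. The 4 were *Map1lc3b*, with 94.97, 93.6 and 91.4 CPM against 151, 171 and 147 CPM (-0.79 ± 0.07, adjusted p = 3.5e-05), *Pink1* (-0.79 ± 0.08, adjusted p = 7.55e-05), *Sqstm1* (-0.64 ± 0.07, adjusted p = 9.8e-05) and *Gabarapl1* (-0.63 ± 0.13, adjusted p = 0.00401). With Trim AGU, *Sqstm1* fell (-0.65 ± 0.10, adjusted p = 0.00189), where 11.4% of all genes were called in either direction. No gene of the 10 was called with Trim A (0.414% of all genes) or Plus A (0% of all genes), 3 and 0 of them had an unadjusted p under 0.05, and DESeq2 called none. Over all genes, edgeR called 0 of 14781 between Plus A and miR-125b in normoxia, 404 had an unadjusted p under 0.05 and DESeq2 called 1. Without the replicate 1 libraries of both groups, whose labels *Cav1* contradicted, edgeR called 166. The same libraries touched the Trim AG result. *Gabarapl1* in Normoxia miR-125b replicate 1 was at 44.9 CPM against 31.6 and 33.8 CPM, and *Sqstm1* at 638 against 549 and 576 CPM. Without it, *Gabarapl1* was lower with Trim AG by 0.46 and *Sqstm1* by 0.58 on the log2 scale, both still at an adjusted p under 0.05 (0.00203 and 6.47e-05) but no longer called, which left 3 calls of 5. The Trim AGU call of *Sqstm1* was lost without Normoxia Trim AGU replicate 2 (-0.57).

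Whether an isomiR differed from miR-125b by a different amount in hypoxia than in normoxia was tested as an interaction. It was called for 3 of 40 pairs. For *Sqstm1*, the difference of Trim AG from miR-125b was 0.25 ± 0.07 in hypoxia and -0.64 ± 0.07 in normoxia, an interaction of 0.88 ± 0.10 (adjusted p = 0.000111), and that of Trim AGU was 0.38 ± 0.11 and -0.65 ± 0.10, an interaction of 1.07 ± 0.15 (adjusted p = 0.0104). For *Ulk1*, that of Trim AG was -0.43 ± 0.15 in hypoxia and 0.27 ± 0.05 in normoxia (-0.71 ± 0.17, adjusted p = 0.0104). Of all genes tested, 11.3% were called for Trim AG and 0.966% for Trim AGU, and 0.605% for Trim A and 0.0193% for Plus A, for which none of the 10 was (3 and 1 with an unadjusted p under 0.05, none by DESeq2). The Trim AG interaction of *Sqstm1* was called in all 12 fits that left out 1 library. Its Trim AGU interaction was not called without any single Hypoxia miR-125b library (adjusted p from 0.0514 to 0.0532), and that of *Ulk1* not without Hypoxia Trim AG replicate 2 (-0.57). For *Bnip3*, the interaction with Trim AGU was 0.77 ± 0.18 and missed the threshold (adjusted p = 0.0637), while DESeq2 gave 0.75 with an adjusted p of 0.00818, so the larger rise of *Bnip3* under Trim AGU is not settled by these tests. With Trim AG it was 0.48 ± 0.15 (adjusted p = 0.0369), below the fold limit.

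**Figure D4:**
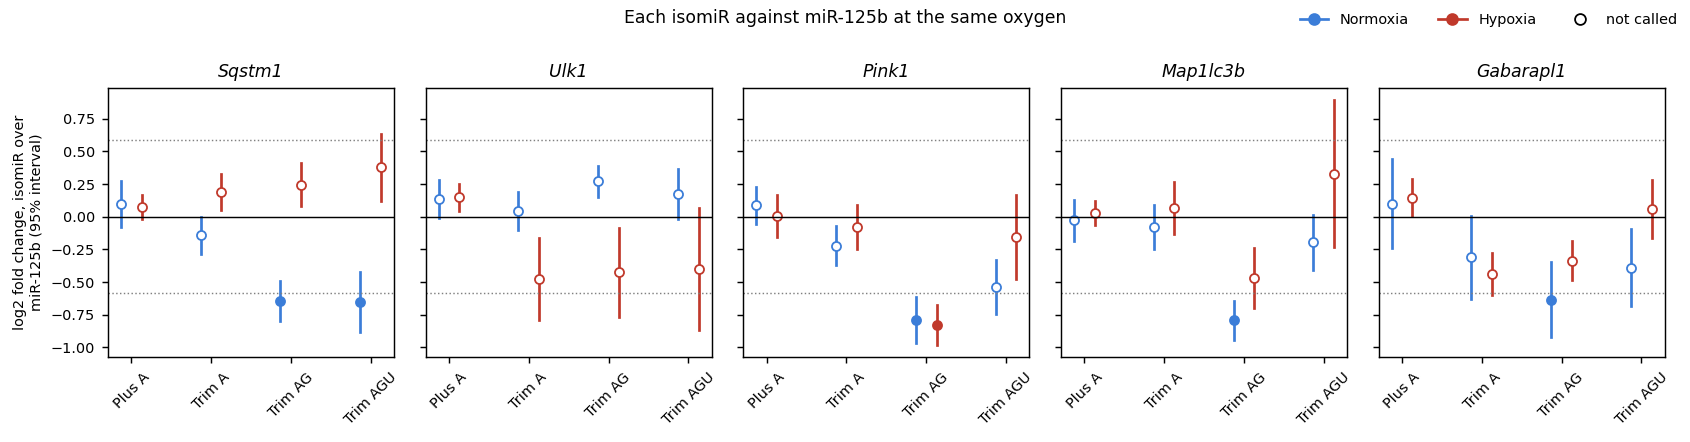
Log2 fold change of each isomiR over miR-125b (y axis) in normoxia (blue) and hypoxia (red) by isomiR (x axis) for 5 genes, with the 95% interval as a line; filled points were called, open points were not, and dotted lines mark 1.5-fold. For *Sqstm1* the points part in opposite directions with Trim AG and Trim AGU, for *Ulk1* they part the other way, and for *Pink1* both lie near -0.8 with Trim AG.

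A list of 85 further genes of autophagy and mitophagy was read next to the 10, and 79 of these were listed in the tables and 77 or 78 tested per comparison. Between hypoxia and normoxia, 8 of 78 were called under miR-125b (10.3%), 7 of 78 under Plus A (8.97%), 13 of 78 under Trim A (16.7%), 19 of 77 under Trim AG (24.7%) and 17 of 77 under Trim AGU (22.1%), in all 40 higher and 24 lower of 388 pairs. Over all genes tested, 20.9%, 22.8%, 26.5%, 32.8% and 27% were called in the same order, each above the share of the list. The other ATG8 proteins, *Gabarap* and *Gabarapl2*, were called higher in 4 of 10 pairs, the ATG8 conjugation genes in 9 of 50, other mitophagy genes in 7 of 40 and the rest of the ULK complex in 3 of 20, and each of these calls was higher (9.34% to 15% of all genes were called higher per mimic). The other cargo receptors were called in 6 of 20 pairs, each time lower (11.5% to 17.8% of all genes), and 4 of these calls were of *Optn*. The DRAM and TP53INP proteins were called in 13 of 20 pairs, 4 higher and 9 lower. Nutrient and energy signals were called in 16 of 80 pairs, 8 higher and 8 lower. The lysosomal genes and their transcription factors had 4 higher and 1 lower of 55, and ATG9 and lipid supply 1 higher of 38. No gene of the lipid kinase complex that holds *Becn1* was called (0 of 25 pairs by edgeR and by DESeq2), and 10 pairs had an unadjusted p under 0.05.

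The pathway genes that were called the same way under at least 4 of the 5 mimics were *Ddit4*, *Dram1*, *Tp53inp2*, *Usp30* and *Optn*. *Ddit4*, which encodes an inhibitor of mTOR signalling, rose under all 5, from 33.2 ± 1.1 to 108 ± 3.3 CPM (SD, n = 3) under miR-125b, with log2 fold changes of 1.31 to 1.82. *Usp30*, a mitochondrial deubiquitinase known to oppose mitophagy, rose under 4, with values of 0.58 to 0.86 over the 5. *Dram1*, a lysosomal membrane protein, fell under all 5 (-1.24 to -0.72). The receptor *Optn* and *Tp53inp2*, whose product binds ATG8 proteins, fell under 4 each (-0.90 to -0.15 and -0.92 to -0.50). Thus, the receptor genes *Optn* and *Sqstm1* were called in opposite directions.

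Against MC in hypoxia, 17, 16, 14, 23 and 19 of 78 genes were called, in the order of mimics used above (21.8%, 20.5%, 17.9%, 29.5% and 24.4%), in all 24 higher and 65 lower of 390 pairs. Over all genes, 21.9%, 24.8%, 28.1%, 37.2% and 23.8% were called, so the share of the list was near or below that of all genes with every mimic. The lower calls were spread over 8 roles, beside 12.4% to 20.2% of all genes called lower per mimic. They came from the DRAM and TP53INP proteins (11 of 20 pairs), the lysosomal genes and their transcription factors (14 of 55), the genes of ATG9 and lipid supply (13 of 40), nutrient and energy signals (9 of 80, with 13 higher), the ULK complex (7 of 20), ATG8 conjugation (7 of 50, with 3 higher), the lipid kinase complex (3 of 25) and the other receptors (1 of 20). The study had tested several DRAM and TP53INP genes as candidate targets of miR-125b, so their count is not independent of that choice. Of 10 genes called the same way with at least 4 mimics, the 8 with the largest mean change are named. *Ctsd*, a lysosomal protease, fell with all 5 mimics, from 817 ± 9.3 CPM with MC to 470 ± 12 CPM with miR-125b and 200.2 ± 26 CPM with Trim AG (log2 fold changes -1.97 to -0.60). *Tp53inp2* (-1.31 to -0.75) and *Ulk2*, the paralog of *Ulk1* (-0.97 to -0.63), also fell with all 5, and *Mitf*, *Ddit4* and *Atg2b* with 4 each. *Sesn2*, a stress-induced regulator of mTOR signalling, rose with all 5 (0.60 to 0.83). *Prkaa2*, a catalytic subunit of the energy-sensing kinase AMPK, rose with 4 (1.05 to 1.75 over the 5) from a low level of 1.64 ± 0.27 CPM. Of the isomiRs against miR-125b, Trim AG had the most calls in the list, 13 of 78 in hypoxia and 11 of 78 in normoxia (16.7% and 14.1%), where 19.3% and 13.9% of all genes were called.

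**Figure D5:**
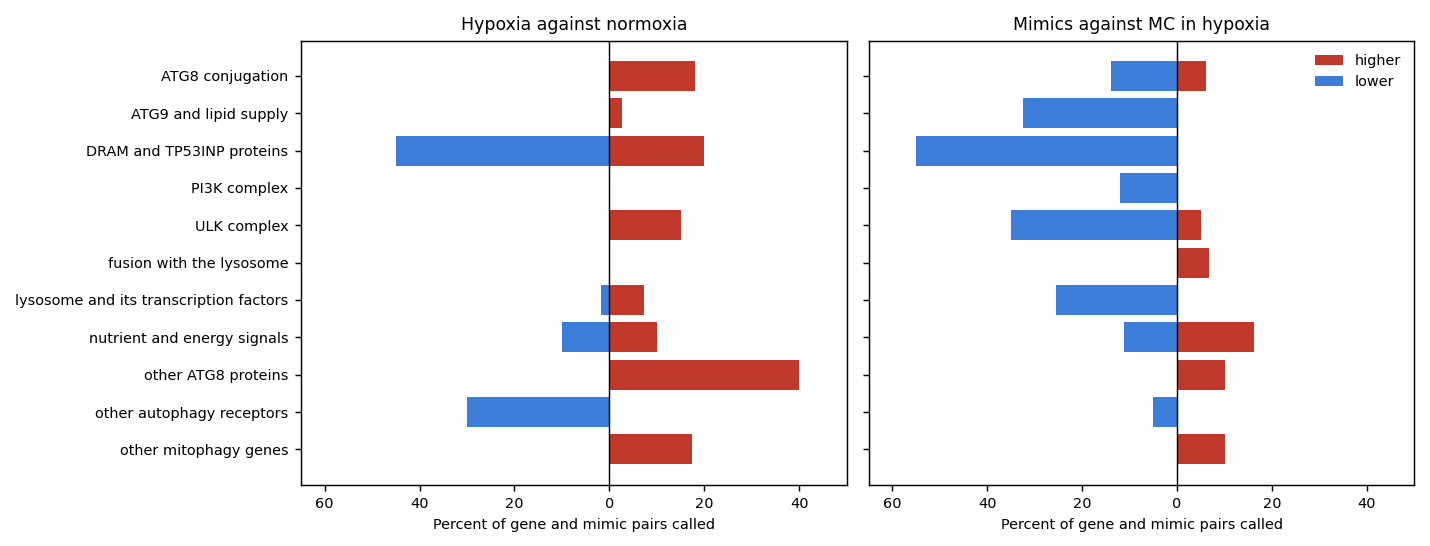
Percent of gene and mimic pairs called higher (red, to the right of 0) or lower (blue, to the left) in each role of the further pathway genes (y axis), for hypoxia against normoxia (left) and for the mimics against MC in hypoxia (right). The ATG8 genes were called higher in 4 of 10 pairs in hypoxia, and the DRAM and TP53INP proteins were called lower in 11 of 20 pairs with the mimics.

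Over the 11 group means on the log2 scale, which share libraries of 2 oxygen levels, the genes were compared with 10034 others of at least 5 CPM. The patterns most like that of *Bnip3* were those of the pseudogene *AABR07067600.1* (Pearson r = 0.998) and *Zscan12* (0.990), and whether the pseudogene shares reads with *Bnip3* was not tested. *Sqstm1* was most like *Osgin1* (0.996) and *Hmox1* (0.993), *Pink1* like *Glt8d1* (0.983) and *Aox1* (0.980), *Map1lc3b* like *Traf3ip2* (0.991) and *Asb8* (0.979), and *Map1lc3a* like *Ube2m* and *Cuta* (both 0.981). *Bnip3l* was most like *Coq10a* (0.973) and *Pinlyp* (0.968), *Gabarapl1* like *Fbxl20* and *Wdr24* (both 0.972), and *Ulk1* like *Wdr6* (0.970) and *Zfyve27* (0.968). The closest patterns to *Becn1* (*Ostm1* at 0.940 and *Lgr4* at 0.937) and *Fundc1* (*Ykt6* at 0.800 and *LOC100910717* at 0.788) were less alike. Among the 10 genes, *Bnip3* and *Sqstm1* had r = 0.961 over the 11 groups but 0.182 over the 6 hypoxic groups alone, and *Pink1* and *Map1lc3b* 0.937 and 0.715.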

How the data were processed

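Poly-A RNA sequencing of H9C2 cells was analysed in 33 libraries, 3 per combination of mimic and oxygen. The authors deposited, in a table for each pair of groups, read counts per gene, not normalised, and FPKM values, which they scaled by gene length and library size. The submitters' processing notes name HISAT2 and StringTie, and versions and genome build were not given in the sources used here. The same tables hold the authors' fold changes and p-values, which were not used. Libraries were not stranded, and reads of a gene and of its antisense partner cannot be told apart.

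The 11 tables were joined on the gene identifier. A gene not listed in a table was taken as 0, and where a table listed it elsewhere the count left out was at most 1. Of the 24275 genes, 1439 had no name. CPM is the count scaled to the library total, and levels across genes are compared in FPKM. Depth was 28361216 to 42672584 counts per library, and intervals cover the spread between libraries. Replicates differed by more than sampling noise (chi-square per gene 4.75 to 219), so none was counted once.

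Groups were compared in pairs with edgeR 4.0.16 in R 4.3.3 (quasi-likelihood test, TMM factors, filterByExpr), two-sided, with Benjamini-Hochberg adjustment over all genes tested and calls at an adjusted p under 0.05 and 1.5-fold. The SE is the log2 fold change divided by the root of F. Whether the difference of an isomiR from miR-125b changed with oxygen was tested as an interaction over 4 groups (12 libraries). The fits were tested on simulated data. Alternatives were DESeq2 1.42.0, scaling by library totals, testing low genes too, fitting all libraries together, a replicate block, each library left out, fold limits of 2 and none, a correction of the fold changes for their trend with gene length (lowess span 0.3, main p-values kept), and leaving out the replicate 1 libraries of Normoxia Plus A and Normoxia miR-125b. Replicate numbers did not pair the libraries. Pathway genes were named where called the same way under at least 4 of 5 mimics, the 8 with the largest mean change at most, and similar patterns were ranked by Pearson's r over 11 group means of log2(CPM + 0.5). Members and lists were chosen with earlier results of these data known.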

Additional observations from a re-analysis of the deposited data

Results flagged for a closer look

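The difference between an isomiR and miR-125b was not the same in hypoxia and in normoxia for 3 pairs of gene and isomiR, by a test of the interaction (edgeR, adjusted over all genes). Of all genes tested, 11.3% were called for this interaction with Trim AG and 0.966% with Trim AGU. For *Sqstm1*, Trim AG was above miR-125b in hypoxia and below it in normoxia, an interaction of 0.88 ± 0.10 on the log2 scale (SE, adjusted p = 0.000111). For *Sqstm1* with Trim AGU it was 1.07 ± 0.15 (adjusted p = 0.0104). This call was lost without any single Hypoxia miR-125b library (adjusted p from 0.0514 to 0.0532). For *Ulk1* with Trim AG it went the other way, at -0.71 ± 0.17 (adjusted p = 0.0104). The *Ulk1* libraries of Hypoxia Trim AG were at 59.8, 36.7 and 43.6 CPM, and replicate 1, the highest, is a library whose deviations rose with gene length (r = 0.290 across genes). With the trend with gene length taken off, the *Ulk1* interaction was -0.59. Without Hypoxia Trim AG replicate 2 it was -0.57 and was not called.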

How the results depend on the processing

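Main counts of the 10 genes were 27 of 50 pairs between hypoxia and normoxia, 15 of 50 against MC, 1 and 5 of 40 for the isomiRs in hypoxia and normoxia, and 3 of 40 interactions. For the further pathway genes they were 64, 89, 21 and 18. A fold limit of 2 gave 14, 1, 0, 0 and 1 for the 10 genes and 15, 23, 7 and 4 for the pathway genes. With no fold limit the 10 genes had 33 against MC, 10 and 10 for the isomiRs and 5 interactions, and the pathway genes 186, 224, 69 and 60. Between hypoxia and normoxia, 9 of the 10 genes then passed under miR-125b, 6 under Plus A and 7 under each trimmed isomiR. *Fundc1* under miR-125b was among these and was lower in hypoxia, so the calls no longer shared 1 direction. Without Normoxia Plus A and Normoxia miR-125b replicate 1, the isomiRs in normoxia had 3. Leaving out 1 library at a time gave 25 to 27, 13 to 16, 1 to 3, 3 to 5 and 2 to 5 for the 10 genes and 53 to 68, 74 to 94, 13 to 25 and 15 to 20 for the pathway genes.

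Of 51 called pairs, 39 were called in every fit that left out 1 library. No call was lost with DESeq2, without the filter on low counts or with all libraries in 1 fit, and none reversed. Removing the length trend lost 6 and library totals 2. Among those 6 were the falls of *Bnip3l* and *Ulk1* with Trim AGU against MC, and the others are not named here. The length trend was taken off the fold changes alone and the main p-values were kept, so only the fold limit could lose those 6. The replicate numbers did not pair the libraries (r of deviations from -0.161 to 0.0756 over 18 comparisons), and with a replicate block the counts of the 10 genes were 27, 15, 1, 5 and 3 and those of the pathway genes 53, 85, 14 and 19.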
